A study of Danio rerio with 12 samples.

Results

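The DMRT genes encode transcription factors that bind DNA through the DM domain, a zinc finger first known from the sex-determination genes doublesex of the fly and mab-3 of the worm. In vertebrates *dmrt1* is known for its role in the testis, while other members act outside the gonad. In zebrafish *dmrt2a* is known for the symmetry of the somites and the left-right placing of the organs, and *dmrt2b* is its duplicate in fish. The mouse relatives of *dmrt3a* and *dmrta2* are known from spinal interneurons and from the patterning of the forebrain.

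The family was measured on arrays of zebrafish embryo pieces as the 5 genes *dmrt1*, *dmrt2a*, *dmrt2b*, *dmrt3a* and *dmrta2*. A probe set, the group of probes that reports 1 transcript or part of it, was taken as a member where its only gene symbol on the platform, updated by synonym, was one of these. This gave 6 of 75212 probe sets, 2 of them for *dmrt1*, and 5 of 20635 named genes.

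The study asked which genes lie downstream of Dmrt2a, using embryos of the line Tg(hsp70:HA-*dmrt2a*), in which a heat-shock promoter drives HA-tagged *dmrt2a* broadly, against wildtype embryos. The study chose fish with a single copy of the transgene for the line. Transgenic and control embryos were both grown at 28 °C, both heat-shocked for 30 min at 39 °C at bud stage and both cut from 2 h to 2 h 30 min later, between the 3 and 4 somite stages. Region 1 was the piece that carries the somites with the lateral and ventral tissue around them, and Region 2 the piece behind it, with the tailbud, the presomitic mesoderm and the left-right organizer (LRO). The 4 groups were Region 1 transgenic, Region 1 control, Region 2 transgenic and Region 2 control, with 3 arrays each, every array from a pool of 100 pieces. The values are log2 signals, and in such pieces fewer cells of a type and less RNA per cell cannot be told apart.

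The markers of the control arrays followed the labels of the pieces for somite and tailbud. Of 7 somite markers, 6 were higher in Region 1 than in Region 2 at an adjusted p under 0.05 (limma), and all 8 measured tailbud and presomitic markers were lower in Region 1. In this comparison 27.7% of all probe sets were called, and 19% were called higher in Region 1. *dand5*, which marks the LRO, averaged 3.56 in Region 1 and 5.54 in Region 2, while 2 of the 4 LRO markers were higher in Region 1. The array medians ran from 3.47 to 3.49 in Region 1 and from 3.29 to 3.32 in Region 2, so the 2 regions may have been normalized apart. The levels of the regions are then not on 1 scale as deposited, and each difference in level between them carries this offset, while it cancels in the comparisons within a region and in the difference of the effects. The median over all probe sets of the difference between control pieces (Region 1 minus Region 2) was 0.06, less than the gap between the array medians. Centring each array on its median can therefore take off more than an offset, and the size of any offset was not tested.

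Only *dmrt2a* was bright. In control pieces it stood at the 93.6 percentile of the named genes in Region 1 and at the 85.1 percentile in Region 2. The other 4 genes stayed close to the array medians or under them, with group means between 2.79 and 3.98. *dmrt3a* was above the median of all probe sets in each of the 4 groups, and *dmrt1* and *dmrta2* were below it in each. *dmrt2b* was above it in the control pieces of Region 2 only. No detection call was used here, so a signal of this size says little on whether the RNA was present.

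**Figure D1:**
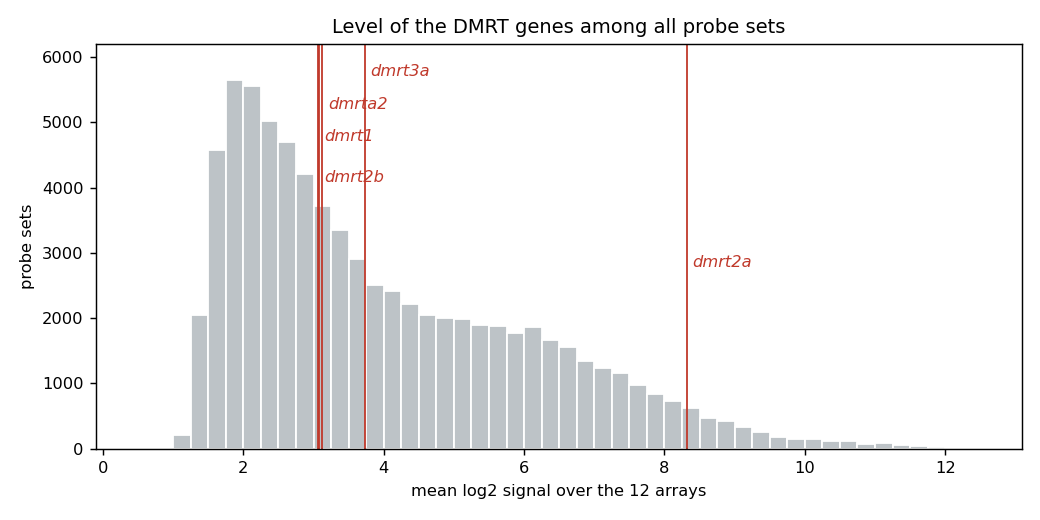
Number of probe sets (vertical axis) by mean log2 signal over the 12 arrays (horizontal axis), with the mean of each DMRT gene as a red line. *dmrt2a* lies at 8.31, in the upper tail, while *dmrt2b* at 3.07, *dmrt1* at 3.08, *dmrta2* at 3.13 and *dmrt3a* at 3.74 lie in the dim part.

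*dmrt2a*, the gene the transgene carries, checks the labels. In Region 2 it read 8.75, 8.70 and 8.84 in the transgenic arrays, against 7.36, 7.41 and 7.33 in the control arrays. In Region 1 it read 8.74, 8.75 and 8.74 in the transgenic arrays, against 8.45, 8.36 and 8.35 in the control arrays. The transgenic arrays were above the control arrays in both regions with no overlap, by a gap of 1.29 in Region 2 and of 0.28 in Region 1. Groups failed to overlap, with the transgenic side higher, for 7.91% of all probe sets in Region 2, for 9.72% in Region 1 and for 1.87% in both.

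In Region 2 *dmrt2a* rose by 1.40 on the log2 scale (SE 0.0716, 95% interval 1.22 to 1.57), a fold of 2.63, with an adjusted p of 0.00352 (limma, Benjamini-Hochberg over all probe sets). It was the only one of the 5 genes past an adjusted p of 0.05 there, where 0.468% of all probe sets passed, 0.0678% as a rise, and 0.125% also changed by a fold above 2. This was the largest rise of all 20635 named genes in Region 2, and the 15th of all probe sets.

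In Region 1 the *dmrt2a* signal was higher by 0.35 (SE 0.0636, 95% interval 0.20 to 0.50), a fold of 1.28, with an adjusted p of 0.0991 (limma) and an unadjusted p of 0.00112. None of the 5 genes passed the threshold there, where 0.507% of all probe sets did, while *dmrt2a* and *dmrt2b* had an unadjusted p under 0.05, as 12.5% of all probe sets had. The *dmrt2a* call turned on the setting. Its adjusted p was 0.017 when all 12 arrays shared 1 estimate of the spread and 0.0126 with a trend and a robust prior, at the same difference. In 6 of 10 alternative settings it stayed uncalled, at adjusted p-values up to 0.286. The same held for all 6 omissions of an array, at 0.195 to 0.261 (limma).

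The order of the *dmrt2a* levels was Region 2 transgenic at 8.76 ± 0.070, Region 1 transgenic at 8.74 ± 0.0078, Region 1 control at 8.39 ± 0.056 and Region 2 control at 7.37 ± 0.042 (SD, n = 3 each). The transgenic pieces of the 2 regions differed by -0.02 (Region 1 minus Region 2, 95% interval -0.16 to 0.11, adjusted p = 0.829, limma). With each array centred on its median this difference was -0.19, with an adjusted p of 0.0436. In the control pieces Region 1 exceeded Region 2 by 1.02 (SE 0.0603, adjusted p = 5.7e-07), or by 0.84 with centred arrays. As deposited, the 2 regions thus differed by a fold of 2.03 in control pieces, while their values overlapped in transgenic pieces.

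The transgenic effect on *dmrt2a* itself differed between the regions, by -1.04 (Region 1 minus Region 2, SE 0.0853, 95% interval -1.23 to -0.86, adjusted p = 0.000825, limma contrast over all 12 arrays). *dmrt2a* was the only one of the 5 genes past the threshold in this test, which 0.191% of all probe sets passed, 0.0638% with a negative sign like *dmrt2a*. On the linear scale of the signal the difference between transgenic and control means was 92.5 in Region 1, with 428 in transgenic and 335 in control pieces, and 270 in Region 2, with 435 in transgenic and 165 in control pieces. As deposited, the linear means of the transgenic groups were thus close, and those of the control groups were not. These linear values carry any offset between the regions, which does not cancel in them. With centred arrays the transgenic pieces differed by -0.19 on the log2 scale, as given above. The probe set reads transcripts of the gene, and how much of its signal came from the transgene and how much from the embryo's own *dmrt2a* was not tested, since the sources used here do not place its probes on the transcript.

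**Figure D2:**
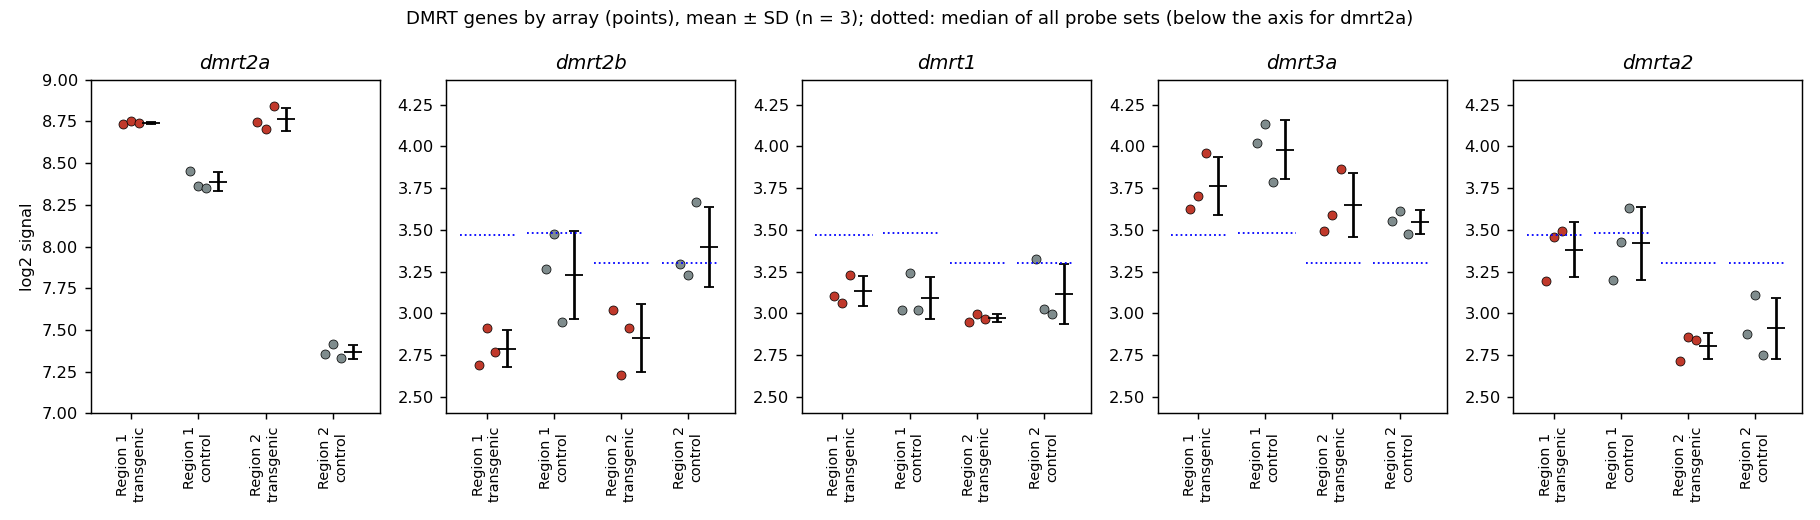
Log2 signal (vertical axes) of the 5 DMRT genes in each of the 12 arrays, by group, with transgenic arrays in red and control arrays in grey. The bars give the mean ± SD of 3 arrays, and the dotted lines give the median of all probe sets, which is below the axis for *dmrt2a*. The *dmrt2a* panel runs over a higher range than the others. *dmrt2a* is higher, and *dmrt2b* lower, in all transgenic arrays of a region than in its control arrays.

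*dmrt2b*, the fish duplicate of *dmrt2a*, ran the opposite way at a low level. In Region 1 it read 2.69, 2.91 and 2.76 in the transgenic arrays, against 3.26, 3.47 and 2.95 in the control arrays. In Region 2 it read 3.02, 2.63 and 2.91 in the transgenic arrays, against 3.29, 3.23 and 3.67 in the control arrays. Every transgenic array was below every control array of its region, by a gap of only 0.04 in Region 1 and of 0.21 in Region 2. Such a lack of overlap, lower in both regions, held for 2.29% of all probe sets (9.56% in Region 1 and 9.3% in Region 2).

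The difference for *dmrt2b* was -0.44 in Region 1 (SE 0.142, 95% interval -0.78 to -0.10, adjusted p = 0.289, limma) and -0.54 in Region 2 (SE 0.153, 95% interval -0.91 to -0.18, adjusted p = 0.263). Neither passed the threshold, at unadjusted p-values of 0.0193 and 0.0104, and 10.8% of all probe sets had an unadjusted p under 0.05 in Region 2. The effects of the 2 regions differed by 0.10 (Region 1 minus Region 2, 95% interval -0.39 to 0.60, adjusted p = 0.933).

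The mean of both regions' effects, a comparison added after these values were seen, was -0.49 for *dmrt2b* (SE 0.112, 95% interval -0.74 to -0.25), or 1.41-fold lower in transgenic pieces. Its adjusted p was 0.0396 (limma, all 12 arrays). Since the comparison was chosen on these values, the p is not independent of them. *dmrt2a* and *dmrt2b* were the 2 genes of the family past the threshold here, which 3.32% of all probe sets passed, 1.34% as a rise and 1.98% as a fall. The call for *dmrt2b* was lost when any of 9 of the 12 arrays was left out, where the difference lay between -0.56 and -0.42 over all 12 omissions. It held without control replicate 3 of Region 1, transgenic replicate 1 of Region 2 or control replicate 2 of Region 2. The arrays of a group scattered more for *dmrt2b* than for most probe sets of like level, with a pooled SD of 0.21 against a median of 0.16.

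**Figure D3:**
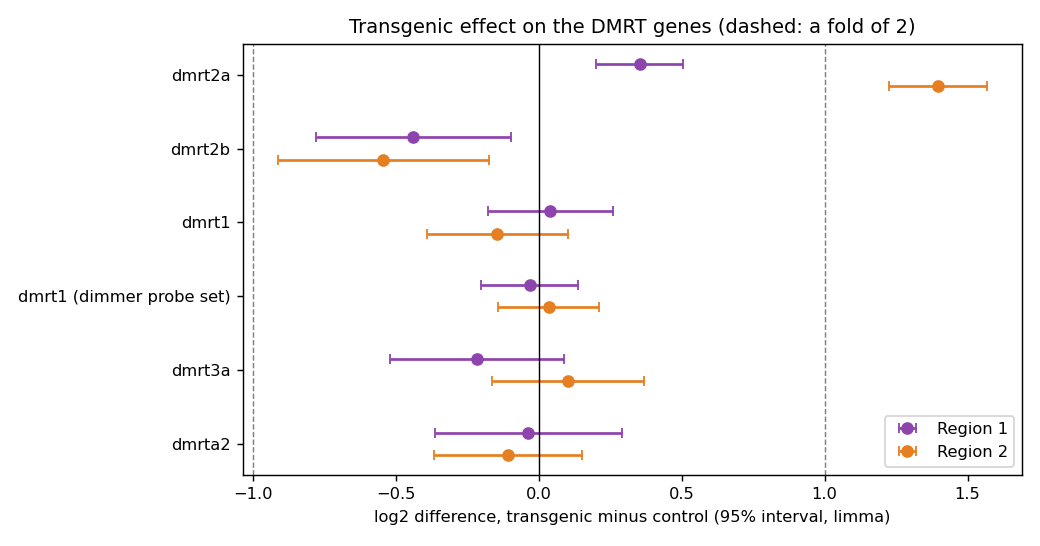
Log2 difference, transgenic minus control (horizontal axis), of each DMRT probe set in Region 1 (purple) and Region 2 (orange), with 95% intervals from limma on 6 arrays. Dashed lines mark a fold of 2. The interval of *dmrt2a* in Region 2, from 1.22 to 1.57, is the only one beyond them, and both intervals of *dmrt2b* lie below 0.

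*dmrt1*, the testis gene of the family, did not pass the threshold in any comparison with its brighter probe set. In Region 2 it read 2.95, 3.00 and 2.96 in the transgenic arrays, against 3.32, 3.02 and 3.00 in the control arrays. These groups did not overlap, by a gap of 0.00063, as in the 9.3% of probe sets above. The difference was -0.15 in Region 2 (95% interval -0.39 to 0.10, adjusted p = 0.693, limma) and 0.04 in Region 1 (95% interval -0.18 to 0.26, adjusted p = 0.902). The dimmer probe set gave 0.03 in Region 2 and -0.03 in Region 1, of the opposite sign in each. In control pieces the brighter probe set differed by -0.02 between the regions and the dimmer one by 0.21 (Region 1 minus Region 2, adjusted p = 0.897 and 0.0385).

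*dmrt3a* and *dmrta2* were called between regions and not between transgenic and control pieces. In control pieces *dmrt3a* read 4.02, 4.13 and 3.79 in Region 1, against 3.56, 3.62 and 3.47 in Region 2. *dmrta2* read 3.20, 3.43 and 3.63 in control pieces of Region 1, against 2.87, 3.11 and 2.75 in those of Region 2. The values of the 2 regions did not overlap for either gene, and Region 1 lay wholly above Region 2 for 28% of all probe sets.

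The difference in control pieces (Region 1 minus Region 2) was 0.43 for *dmrt3a* (SE 0.124, adjusted p = 0.0253, limma) and 0.51 for *dmrta2* (SE 0.129, adjusted p = 0.0138). With *dmrt2a*, 3 of the 5 genes were called in control pieces, all higher in Region 1, where 27.7% of all probe sets were called and 19% were called higher in Region 1. Both calls were lost with each array centred on its median, where the differences were 0.25 and 0.33, with adjusted p-values of 0.151 and 0.0744. That centring can take off more than an offset, as given above. The *dmrt3a* call was also lost without control replicate 1 or 2 of Region 1 or control replicate 1 or 3 of Region 2, at differences between 0.35 and 0.44. That of *dmrta2* was lost without control replicate 3 of either region, at 0.40 and 0.43.

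In transgenic pieces *dmrta2* read 3.19, 3.46 and 3.49 in Region 1, against 2.71, 2.85 and 2.84 in Region 2. It was higher in Region 1 by 0.58 (SE 0.129, adjusted p = 0.00717), the only call of the family between transgenic pieces, where 26.6% of all probe sets passed and 18.8% were called higher in Region 1. *dmrt3a* read 3.63, 3.71 and 3.96 in transgenic pieces of Region 1, against 3.49, 3.59 and 3.86 in those of Region 2, which overlapped (difference 0.11, adjusted p = 0.547). These arrays are also those of the comparisons within regions.

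Between transgenic and control pieces, *dmrt3a* differed by -0.22 in Region 1 (95% interval -0.52 to 0.09, adjusted p = 0.553, limma) and by 0.10 in Region 2 (95% interval -0.16 to 0.37, adjusted p = 0.816). *dmrta2* differed by -0.04 in Region 1 (95% interval -0.36 to 0.29, adjusted p = 0.942) and by -0.11 in Region 2 (95% interval -0.37 to 0.15, adjusted p = 0.794). An exact permutation test of the mean effect over the arrays within each region gave two-sided p-values of 0.56 for *dmrt3a*, 0.43 for *dmrta2* and 0.56 for *dmrt1*. Effects of opposite sign cancel in that mean, and those of *dmrt3a* and *dmrt1* had opposite signs in the 2 regions. The test thus says nothing on either region alone. The intervals of these 3 genes leave no room for a fold of 2 in the signal, in either direction. With signals near the array median and array background not assessed, they do not bound the fold of the RNA.

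**Figure D4:**
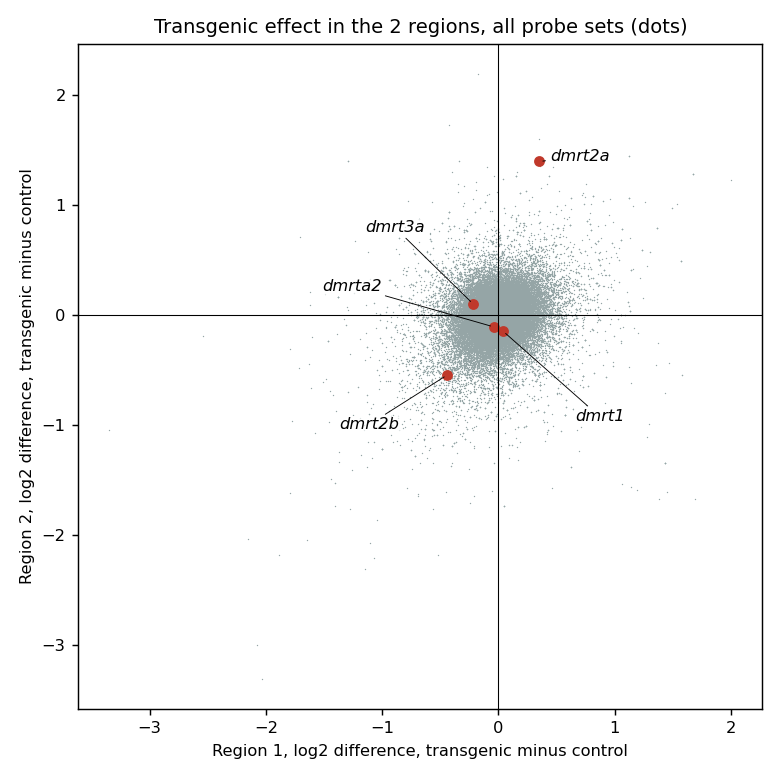
Log2 difference, transgenic minus control, in Region 1 (horizontal axis) and in Region 2 (vertical axis) for all 75212 probe sets (grey), with the 5 DMRT genes in red. *dmrt2a* stands at 0.35 and 1.40, *dmrt2b* at -0.44 and -0.54, and the other 3 lie within the bulk of the probe sets.

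In the GRCz12tu annotation *dmrt1*, *dmrt3a* and *dmrt2a* follow each other in a cluster between *kank1a* and *smarca2*, and *dmrt3a* and *dmrt2a* lie inside the span annotated for *dmrt1*. The sources used here do not name the build of the platform, so no positions are printed. The rise of *dmrt2a* in Region 2 was not seen in its cluster neighbours *dmrt1* and *dmrt3a*, which differed there by -0.15 and 0.10. Both signals were near the array medians, so these differences say little on the RNA of the 2 neighbours. Over the 10 annotated neighbours of the 5 genes that were measured outside the family, none of 20 probe sets passed an adjusted p of 0.05 in either region (limma). With 0.507% of all probe sets passing in Region 1 and 0.468% in Region 2, a count of 0 in 20 is no result about the neighbours. Their differences ran from -0.17 to 0.32 in Region 1 and from -0.23 to 0.46 in Region 2.

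The genes around Dmrt2 in the making of muscle were the first list set beside the family. In the mouse, Pax3 acts upstream of Dmrt2, and Dmrt2 acts on Myf5, a gene that starts the muscle programme. Of 22 such genes 17 were measured. In Region 1, 1 rose and 2 fell, and in Region 2 none rose and 3 fell (limma, adjusted p under 0.05). Of all probe sets 0.162% rose and 0.344% fell in Region 1, and 0.0678% rose and 0.4% fell in Region 2. The list was drawn up with earlier results of these data known, so an excess over these shares is no test. The list median was 0.01 in Region 1 and -0.04 in Region 2, against -0.01 over all probe sets in both. Passing only in the mean of both regions' effects were *meox1* (0.31), *tbx6* (0.23), *mef2d* (-0.19) and *lbx1b* (-0.33). Their adjusted p-values ran from 0.00122 to 0.0492 (limma), and 3.32% of all probe sets passed there.

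*myf5* fell in Region 2, to 7.71 in transgenic pieces, against 8.90 in control pieces (-1.19, SE 0.0631, adjusted p = 0.00375), while in Region 1 it averaged 7.15 in transgenic and 7.13 in control pieces. The effects differed between the regions by 1.21 (Region 1 minus Region 2, SE 0.088, adjusted p = 0.000441). *myod1*, which also specifies muscle, fell in Region 2 by 0.59 (SE 0.0764, adjusted p = 0.0422). *pax3a*, a gene of the dermomyotome and neural crest, fell in both regions. It averaged 7.34 in transgenic and 7.87 in control pieces of Region 1 (-0.53, adjusted p = 0.0326), and 5.998 in transgenic and 6.50 in control pieces of Region 2 (-0.50, adjusted p = 0.0481).

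*pax3b*, the duplicate of *pax3a*, fell in Region 1 by 0.90 (SE 0.0905, adjusted p = 0.0217). *tbx16*, a T-box gene of the presomitic mesoderm, rose in Region 1 by 0.95 (SE 0.0845, adjusted p = 0.0162), and its effects differed between the regions by 0.69 (adjusted p = 0.0273), a call kept in 2 of 12 omissions of an array. The calls of *pax3a*, *pax3b* and *tbx16* in Region 1, and of *pax3a* and *myod1* in Region 2, were lost when any 1 of the 6 arrays was left out, while that of *myf5* held in all 6 omissions. In these omissions *pax3a* ran from -0.54 to -0.51, *pax3b* from -0.97 to -0.83 and *tbx16* from 0.89 to 1.01 in Region 1. In Region 2 *pax3a* ran from -0.53 to -0.48 and *myod1* from -0.64 to -0.54. In Region 1, where 0.162% of all probe sets rose, 3 of the 8 tailbud and presomitic markers rose in transgenic pieces, *tbx16*, *her7* and *msgn1*. Per array, the mean level of all 8 ran from 7.57 to 7.66 in transgenic pieces of Region 1. In control pieces there it ran from 7.22 to 7.28. Of the 8, *fgf8a* alone went the other way in Region 1, at -0.28 (adjusted p = 0.303, limma). The rise of the mean was thus not shared by all 8 markers, and its part in these values was not tested.

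The second list held 17 genes of left-right patterning and of the segmentation clock, for which *dmrt2a* is known in zebrafish, and all were measured. *foxj1b*, a transcription factor gene of ciliated cells, was called lower in each region. It averaged 4.51 in transgenic and 5.92 in control pieces of Region 1 (-1.41, SE 0.0886, adjusted p = 0.00473), and 3.88 in transgenic and 5.40 in control pieces of Region 2 (-1.52, SE 0.0865, adjusted p = 0.00375). Both calls held with any 1 array left out. The list was drawn up with this fall known. *her7*, a gene of the segmentation clock and 1 of the 3 tailbud and presomitic markers higher there, rose in Region 1 by 0.58 (adjusted p = 0.0381). Its call was lost with any 1 array left out, at differences from 0.56 to 0.63. Of the other 15 genes none passed in either region, *spaw* and *dand5*, which act in left-right signalling at the LRO, among them. Since 0.507% of all probe sets passed in Region 1 and 0.468% in Region 2, that count is no result about these 15. In the mean of both regions' effects *foxj1a* (0.52), *her1* (0.29), *hes6* (0.29) and *lft2* (0.27) rose and *sox17* (-0.36) fell. Their adjusted p-values ran from 0.00394 to 0.0495 (limma), and *foxj1a* went the opposite way to *foxj1b*. That comparison was added after values were seen, and 3.32% of all probe sets passed it. The list median was 0.08 in Region 1 and 0.12 in Region 2.

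For *dmrt3a* and *dmrta2*, 21 genes of the forebrain, of spinal interneurons and of neural patterning were listed, and 20 were measured. In Region 1, 1 rose and 3 fell, and in Region 2 none rose and 5 fell. Over all probe sets 0.162% rose and 0.344% fell in Region 1, and 0.0678% rose and 0.4% fell in Region 2. This list too was drawn up with earlier results known, so an excess over these shares is no test. *pax6a*, *pax6b* and *dbx1a*, which pattern the neural tube, fell in both regions. *pax6a* fell by 0.83 in Region 1 and by 0.99 in Region 2 (adjusted p = 0.0124 and 0.0224), and *pax6b* by 0.53 and 0.86 (adjusted p = 0.0424 and 0.0135). *dbx1a* fell by 0.60 in Region 1 and by 1.22 in Region 2 (adjusted p = 0.022 and 0.0163).

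*otx2b*, a gene of the forebrain and midbrain, fell in Region 2 by 1.06 (adjusted p = 0.01), at a level of 2.03 in transgenic and 3.09 in control pieces, below the array medians. *emx2*, a forebrain gene also active outside it, rose in Region 1 by 0.65 (adjusted p = 0.0387). These calls of *pax6a*, *pax6b*, *dbx1a*, *otx2b* and *emx2* were each lost when any 1 of the 6 arrays was left out. Their differences kept their sign in these omissions. In Region 1 *pax6a* ran from -0.85 to -0.80, *pax6b* from -0.56 to -0.49, *dbx1a* from -0.61 to -0.58 and *emx2* from 0.59 to 0.71. In Region 2 *pax6a* ran from -1.07 to -0.91, *pax6b* from -0.89 to -0.82, *dbx1a* from -1.29 to -1.14 and *otx2b* from -1.10 to -0.99. The list median was -0.06 in Region 1 and -0.13 in Region 2.

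Of 5 measured forebrain and midbrain markers, 3 fell in transgenic pieces of Region 2, where 0.4% of all probe sets did. But these were *otx2b*, *pax6a* and *six3b*, which are on this list too, as is *emx3*. The only one outside the list, *rx3*, differed there by -0.53 (adjusted p = 0.212, limma), so these markers add no separate value. Of 4 measured hindbrain markers, 2 fell in transgenic pieces of Region 1, where 0.344% of all probe sets fell. These were *fgf3* at -1.62 and *hoxb1a* at -0.77 (adjusted p = 0.00359 and 0.02, limma). *hoxb3a* at -0.34 and *egr2b* at -0.17 did not pass (adjusted p = 0.147 and 0.42). The mean level of all 4 ran from 6.70 to 6.78 in transgenic pieces there, against 7.42 to 7.53 in control pieces. Markers of the yolk syncytial layer and the epidermis had a lower mean level on every transgenic array than on every control array of both regions. The same held for the forebrain and midbrain markers. For single probe sets such a lack of overlap, lower in both regions, held for 2.29% of all. That share is no background for a mean of several markers. For the 4 yolk syncytial markers the mean ran from 6.39 to 6.41 in transgenic and from 6.56 to 6.64 in control pieces of Region 1, and from 6.11 to 6.21 in transgenic and from 6.46 to 6.53 in control pieces of Region 2. Of these *slc26a1* alone passed, at -0.71 in Region 1 and -0.86 in Region 2 (adjusted p = 0.018 and 0.0286). *apoa2* went the other way in Region 1, at 0.26, and *mxtx2* in Region 2, at 0.03. The fall of the mean was thus not shared by all 4 markers. For the 5 epidermal markers, none of which passed, the mean level ran from 9.98 to 10.03 in transgenic and from 10.12 to 10.15 in control pieces of Region 1, and from 9.96 to 10.03 in transgenic and from 10.16 to 10.20 in control pieces of Region 2. The share of these tissues in each pool, and its part in the values of the family and the lists, was not tested. *dmrt3a* and *dmrta2* themselves passed no test between transgenic and control pieces.

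Of 17 genes of the gonad and the germ line listed for *dmrt1*, none passed in either region. With 0.507% of all probe sets passing in Region 1 and 0.468% in Region 2, this count is no result about the list. The list median was 0.03 in Region 1 and 0.06 in Region 2. The gonad genes *amh*, *cyp19a1a*, *foxl2a* and *figla* had group means of at most 2.46. These were below the array medians, where *dmrt1* was too. Other genes of the list were above the medians in all groups, such as *nr5a1a* at 3.66 to 3.94 and *gata4* at 8.68 to 9.27. *sox9a*, which also acts in cartilage and neural crest, was 7.44 in transgenic and 7.89 in control pieces of Region 1, and 6.56 in transgenic and 6.14 in control pieces of Region 2, and its effects differed between the regions by -0.88 (SE 0.119, adjusted p = 0.0206, limma), a call kept in 2 of 12 omissions.

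Celf1, an RNA-binding protein known in zebrafish to act on the *dmrt2a* transcript, was listed with 5 relatives. None of the 6 passed between transgenic and control pieces, where 0.507% of all probe sets passed in Region 1 and 0.468% in Region 2. Such a count is no result about the 6 genes. *celf1* averaged 8.92 in both transgenic and control pieces of Region 1, and 8.82 in transgenic and 8.88 in control pieces of Region 2.

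The genes whose 12 values ran most like those of *dmrt2a* and *dmrt2b* were taken from 9561 and 9562 named genes with a mean of at least 5. For *dmrt2a* these were *pcdh10b* (Pearson r = 0.95), *lrp1ab*, *nkx6.2*, *cblb* and *marcksl1a*. *pcdh10b*, a protocadherin, averaged 7.69 in transgenic and 6.99 in control pieces of Region 2, and 7.67 in transgenic and 7.60 in control pieces of Region 1. The most opposite were *atp2b1a* (r = -0.99), *myclb*, *hspa1b*, *oser1* and *pck2*. Among them *hspa1b*, an Hsp70 gene, averaged 7.05 in transgenic and 7.60 in control pieces of Region 2, and 7.002 in transgenic and 7.13 in control pieces of Region 1.

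For *dmrt2b* the most alike were *cldn23.1* (r = 0.90), *b4galt4*, *map3k15*, *pfkfb1* and *map3k5*, and the most opposite *whr1* (r = -0.96), *srpk1a*, *fmr1*, *sh3bgrl3* and a gene known by a clone name. The 12 points are 4 groups of 3 arrays, so each r mostly follows the group means, and the 6 arrays of a region share its array median. The r values are a description of these arrays.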

How the data were processed

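The authors hybridised total RNA to Affymetrix Zebrafish Gene 1.1 ST arrays and made the deposited log2 signals in Affymetrix Expression Console. The sources used here do not name the summarization or normalization, and array background was not assessed. The deposited log2 values were used unchanged. Their number, 3 arrays per group, limits the precision, and an exact permutation test of 3 against 3 cannot go below 0.1. The permutation test used here took both regions together, with 400 arrangements, and cannot go below 0.005. The methods call the arrays biological replicates.

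Probe sets with 1 platform symbol (29528) were named through gene identifiers and synonyms. A gene was represented by its brightest probe set. limma 3.58.1 (R 4.3.3) was fitted to the 6 arrays of each region, and to all 12 for comparisons between regions, with Benjamini-Hochberg adjustment over 75212 probe sets, after a test on simulated data. Tables and the exact permutation test were made in Python 3.11.15.

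The family and all lists were chosen with earlier results of these data known. Named are all members, their annotated neighbours, the 5 genes most like and most opposite to *dmrt2a* and *dmrt2b*, and up to 4 genes per list and comparison with the smallest adjusted p, beside genes named for their role. Alternatives changed the test, spread, arrays in the fit, weights, scaling, filters and probe set, added a replicate block, or left out an array.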

Additional observations from a re-analysis of the deposited data

Results flagged for a closer look

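The transgenic effect on *dmrt2a* differed between the regions by -1.0444 (Region 1 minus Region 2, log2 scale), by a limma test of the difference itself. It was 0.35 in Region 1 and 1.40 in Region 2.

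In the same test, which 0.191% of all probe sets passed, 5 of the listed genes differed. The difference was 1.2103 for *myf5*, 0.6904 for *tbx16*, 0.6941 for *emx2*, 0.6466 for *otx2b* and -0.877 for *sox9a*. That of *myf5* held without any 1 of the 12 arrays, with adjusted p-values from 0.00175 to 0.00309. The call was kept in 2 of the 12 omissions for *tbx16* and for *sox9a*, in 1 for *emx2*, where the adjusted p ran from 0.036 to 0.104, and in 0 for *otx2b*.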

How the results depend on the processing

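The rise of *dmrt2a* in Region 2 and the difference of its effects between regions kept their direction in every alternative run, and the first lost its call only with the replicate number as a block. Same-numbered arrays deviated together little (correlations -0.055 to 0.079 over 18 pairs), so the numbers were not taken as pairs. Between the 2 regions of the same condition the correlations ran from 0.017 to 0.079. The methods give a pool of each region for every replicate and condition. For the separate quantitative PCR samples they say that each embryo was cut in both regions. The 2 pools of a replicate may thus come from the same embryos, while the tests over 12 arrays treated them as independent. With the replicate block *dmrt2a* in Region 2 stood at 1.40 with an adjusted p of 0.11, leaving 0 of the 5 genes, and *dmrt2b* over both regions at -0.49 with 0.0891, leaving 1. The block also took every call of the listed genes within a region. In Region 1 *dmrt2a* (0.35) passed, making 1 gene, with a trend and a robust prior (0.0126), all 12 arrays (0.017), brighter probe sets (0.0372) or probe sets with 1 symbol (0.0237). One-way ANOVA left 1 gene for the mean effect (*dmrt2b* -0.49, 0.0815) and 1 in control pieces. Quantile normalization and median centring also left 1 in control pieces. Median centring made 2 in transgenic pieces (*dmrt2a* -0.19), brighter probe sets 0. Brighter probe sets left 1 for the mean effect, since *dmrt1*, *dmrt2b* and *dmrta2* were not among them.

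Signs turned for differences near 0: *dmrt1* with its other probe set (-0.032 in Region 1, 0.034 in Region 2, -0.066 for their difference, 0.21 in control pieces, 0.00088 for the mean), with array weights in control pieces (0.025) and with centring in transgenic pieces (-0.0065), and *dmrt3a* in transgenic pieces with quantile normalization (-0.076) and centring (-0.055). The cause was not tested. Leaving out 1 array gave, for transgenic minus control, *dmrta2* -0.15 to 0.069 and *dmrt1* -0.010 to 0.11 in Region 1 and *dmrt3a* -0.0062 to 0.18 in Region 2. For the difference of effects it gave *dmrta2* -0.041 to 0.18 and *dmrt2b* -0.035 to 0.23. Between control pieces *dmrt1* ran from -0.095 to 0.083, and between transgenic pieces *dmrt2b* from -0.18 to 0.019 and *dmrt2a* from -0.052 to 0.017. Over both regions *dmrt2b* ran from -0.56 to -0.42, with 1 to 2 genes past the threshold, and 1 to 3 passed in control pieces.

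With one-way ANOVA the muscle list held 1 gene in Region 2 in place of 3, the neural list 2 in Region 1 and 1 in Region 2 in place of 4 and 5, and the left-right and clock list 1 in Region 1 in place of 2. Centring left 1 of the muscle list in Region 2.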
